A study of Rattus norvegicus with 12 samples.

Results

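Mbp, Mog, Mal, Mag, Cnp, Mobp, Cldn11, Ugt8 and Gal3st1 are genes that oligodendrocytes use to build and keep myelin. They were taken by symbol from the deposited gene counts, and make up 9 of the 17172 gene symbols counted in each library. All 9 were found in every library and passed the filter on low counts, which kept 11750 genes for testing. Together they held between 0.249% and 0.737% of the counts in genes.

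The tissue was ventral dentate gyrus, the granule cell field of the lower hippocampus, from male rats, with the strain given as Sprague-Dawley. Flinders Resistant Line rats given tap water form the group called here FRL vehicle, and Flinders Sensitive Line rats given tap water the group FSL vehicle. The sensitive line is used as a depression model and the resistant line as its control. The other 2 groups were Flinders Sensitive Line rats that drank L-acetyl-carnitine (LAC) in tap water for 7 days, at 0.3% w/v or close to 210 mg/kg of body weight daily. They were labelled by their response to LAC as non-responders and responders. Both LAC groups and FSL vehicle therefore share one line and differ from FRL vehicle in line. Each group had 3 libraries, called biological replicates by the submitters. How a response was scored, the ages, and the number of animals behind a library are not stated in the labels, so p-values measure the spread between these libraries.

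Myelin is the lipid-rich membrane that oligodendrocytes wrap around axons in the brain, where it speeds conduction and supports the axon. Its sheath is held together by a small set of abundant proteins: myelin basic protein compacts the cytoplasmic faces of the wraps, adhesion proteins face the axon or the outer surface, and claudin-11 seals the wraps with tight junctions. Galactolipids make up a large part of the membrane, and their synthesis runs through ceramide galactosyltransferase and then a sulfotransferase. Oligodendrocytes arise from precursor cells marked by Pdgfra, and the factors Olig1, Olig2, Sox10 and Myrf drive their identity and myelination.

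The start regions of 8 of the 9 genes were matched in RefSeq on the assembly GRCr8, from 250 bases before to 50 after the annotated start. The window of Mog was not matched. Shown are 4 windows, chosen for their letters or for the levels of the gene. Those of Cnp and Mag held letters of different oligodendrocyte factors, and that of Mobp a repeat. Cldn11 is the gene whose levels departed from the rest. Whether the letters relate to the levels was not tested. Each window is read 5′ to 3′ on the strand of its gene, and capitals mark the searched letters on either strand. These were the SOX core ACAAAG, the E-box CAGCTG bound by factors of the OLIG class, and the MYRF core CTGGCAC or CTGGTAC. No 2 capital runs overlap.
Cnp promoter, chr10:86011254-86011553, plus strand: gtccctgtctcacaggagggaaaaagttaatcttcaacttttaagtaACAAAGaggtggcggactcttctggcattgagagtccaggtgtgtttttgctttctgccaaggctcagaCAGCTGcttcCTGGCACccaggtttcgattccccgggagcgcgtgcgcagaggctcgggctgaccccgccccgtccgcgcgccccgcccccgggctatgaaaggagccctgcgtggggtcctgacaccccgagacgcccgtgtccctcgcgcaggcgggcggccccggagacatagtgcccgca
Mag promoter, chr1:95290995-95291294, minus strand: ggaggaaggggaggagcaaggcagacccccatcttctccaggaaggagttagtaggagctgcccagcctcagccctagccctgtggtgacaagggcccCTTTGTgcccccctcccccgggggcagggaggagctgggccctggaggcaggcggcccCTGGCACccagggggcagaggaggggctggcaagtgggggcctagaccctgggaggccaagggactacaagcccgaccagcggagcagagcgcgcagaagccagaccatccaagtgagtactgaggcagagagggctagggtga
Mobp promoter, chr8:128746982-128747281, plus strand: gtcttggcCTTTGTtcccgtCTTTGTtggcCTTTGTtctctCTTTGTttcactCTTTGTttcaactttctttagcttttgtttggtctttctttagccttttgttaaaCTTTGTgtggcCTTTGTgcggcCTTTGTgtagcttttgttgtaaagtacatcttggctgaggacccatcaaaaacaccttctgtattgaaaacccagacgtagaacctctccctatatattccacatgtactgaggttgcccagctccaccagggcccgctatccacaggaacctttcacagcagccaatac
Cldn11 promoter, chr2:114149490-114149789, minus strand: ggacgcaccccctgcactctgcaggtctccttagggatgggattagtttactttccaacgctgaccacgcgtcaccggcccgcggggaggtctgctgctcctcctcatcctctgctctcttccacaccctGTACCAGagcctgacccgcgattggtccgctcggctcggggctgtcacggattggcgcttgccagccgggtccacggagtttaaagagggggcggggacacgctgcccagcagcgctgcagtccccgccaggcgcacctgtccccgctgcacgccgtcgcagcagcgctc

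The SOX core stood in 4 of the 8 matched genes (Mbp, Mag, Cnp and Mobp), against 18.8% of 33469 promoter windows of the same length. Mobp carried it 8 times, each time as the reverse complement CTTTGT, in its upstream stretch. CTGGCAC stood in Mal, Mag and Cnp and in 4.75% of all windows, and CTGGTAC in Cldn11 and in 2.16% of all windows. The E-box stood in Mbp and Cnp and in 15.1% of all windows. A gene was counted if any of its windows held the letters, while the shares are per window. Of the 2 windows of Mbp, only the downstream window held the SOX core and the E-box. Ugt8 and Gal3st1 held none of these letters in their windows. The median GC content of the windows was 65% for the 9 member windows, 2 of which belong to Mbp, and 51.7% for all windows. These are matches of letters in short windows, and binding was not measured.

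Counts in genes ran from 5.91 to 8.14 M per library (M for mega), so 3 counts correspond to 0.367 to 0.511 counts per M counts (CPM), a floor for counting error only. Levels use library sizes scaled by TMM, and since gene lengths were not used, levels are not compared between genes. Some libraries carried RNA of tissue around the dentate gyrus. The summed level of 10 choroid plexus markers reached 6204 CPM in non-responder 1, 3312 in FSL vehicle 1 and 367.8 in FSL vehicle 3, and was at most 58.1 elsewhere. The 10 meningeal and fibroblast markers summed to 2728 CPM in the third FSL vehicle library and 857.7 in the second, against 91.9 to 604.8 in the other libraries. Prox1, a granule neuron factor, was at 10.4 CPM in FRL vehicle 2 and 9.18 in responder 1, against 51.6 to 128.9 in the other 10. Calb1 of the same marker list was not low there, at 120.2 and 191.6 CPM, against 89.3 to 203.4 elsewhere. The mean log2 CPM of the list was 2.737 and 2.711 in these libraries, against 3.575 to 4.015 elsewhere. The 6 Schwann cell markers summed to 6.56 to 33.9 CPM.

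Myelin basic protein, which Mbp encodes, had the most counts of the set, 10879 to 35952 per library. Mbp was at 1961, 2921 and 2239 CPM in FRL vehicle 1 to 3, at 2266, 1402 and 1965 in FSL vehicle, at 2741, 4737 and 2952 in non-responders, and at 2146, 4127 and 2591 in responders. Every non-responder library lay above every FSL vehicle library, while responder 1 lay between the FSL vehicle libraries. Non-responder 2 and responder 2 stood above all other libraries, and FSL vehicle 2 below all. Group means were 2374 ± 494, 1878 ± 438, 3477 ± 1097 and 2955 ± 1039 CPM in the same order (SD, n = 3 each). In tissue of this kind, fewer oligodendrocytes and less RNA per oligodendrocyte cannot be told apart.

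**Figure D1:**
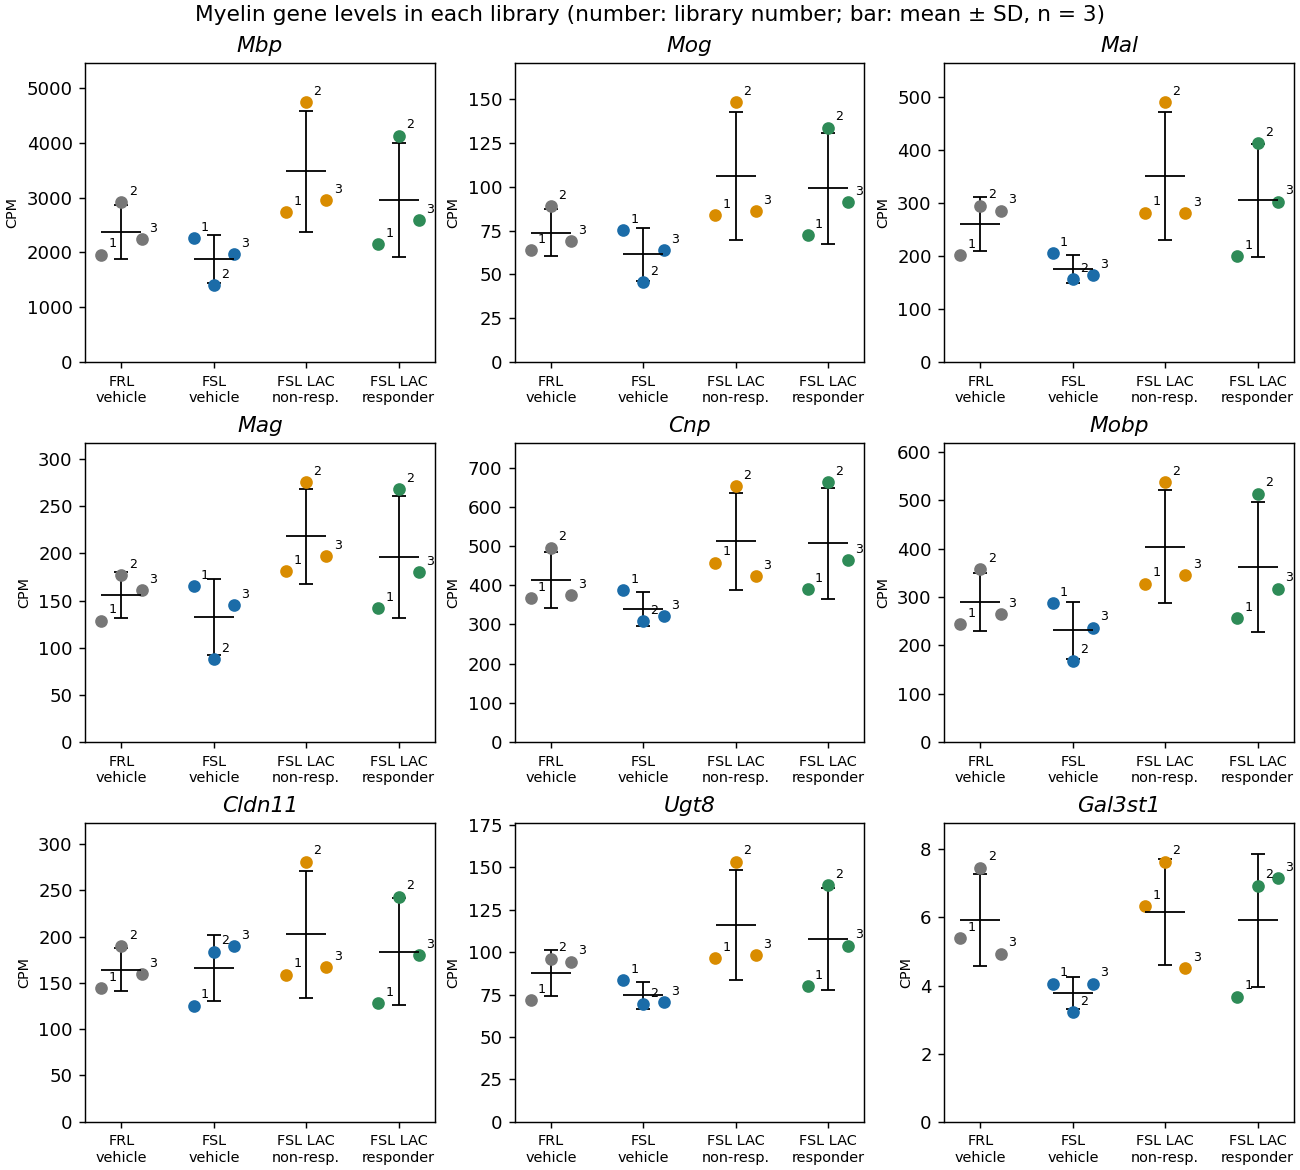
Level of each of the 9 myelin genes in CPM (vertical axes from 0) in the 12 libraries by group, with a point and number per library and bars for the mean ± SD of 3. Non-responder 2 is the highest point for 8 genes and responder 2 for Cnp, and FSL vehicle 2 is the lowest for all but Cldn11.

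Among the other proteins of the sheath, Mobp, which encodes a basic protein of compact myelin, repeated the pattern of Mbp. It was at 244.7, 357.6 and 265.2 CPM in FRL vehicle, 287.4, 168.5 and 236.7 in FSL vehicle, 327.7, 538.3 and 344.8 in non-responders, and 256, 514 and 317.6 in responders. Non-responders again lay apart from FSL vehicle, and responders overlapped both. Mal, which encodes a membrane protein that sorts myelin cargo, was at 202.9, 295.8 and 286.3 CPM in FRL vehicle and at 206.3, 156.6 and 164.1 in FSL vehicle. The same gene was at 282.8, 491.2 and 282.3 CPM in non-responders and at 201, 414.1 and 303.5 in responders. Here FSL vehicle 2 and 3 lay below every other library, and FSL vehicle 1 above the lowest FRL vehicle and responder libraries. Cnp, which encodes the cyclic nucleotide phosphodiesterase that keeps cytoplasmic channels in myelin open, was at 367.8, 495.7 and 375.2 CPM in FRL vehicle and 387.9, 308.2 and 320.5 in FSL vehicle. It was at 457.7, 652.8 and 423.7 CPM in non-responders and 390.9, 663.5 and 464.5 in responders. Cnp was the one gene of the 9 for which all 6 LAC libraries lay above all 3 FSL vehicle libraries, with responder 1 just above FSL vehicle 1.

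The adhesion genes also had their highest level in non-responder 2 and their lowest in FSL vehicle 2. Mag encodes myelin-associated glycoprotein, which faces the axon, and was at 128.7, 177.1 and 161.4 CPM in FRL vehicle, 164.9, 87.7 and 145.5 in FSL vehicle, 181.2, 275.8 and 197.3 in non-responders, and 141.8, 267.9 and 179.9 in responders. All 3 non-responder libraries exceeded all 6 vehicle libraries of both lines. Mog encodes the glycoprotein of the outermost wrap, and was at 63.6, 88.9 and 68.9 CPM in FRL vehicle, 75.4, 45.5 and 63.6 in FSL vehicle, 84, 148.1 and 86.2 in non-responders, and 72.4, 133.6 and 91 in responders. Non-responders lay apart from FSL vehicle but not from FRL vehicle. In the RefSeq table on GRCr8, Mog overlaps Zfp57, and with the strand setting of the counting not stated in the labels, reads in the overlap cannot be assigned with certainty. Mbp, Mal and Mag overlap long non-coding genes and Ugt8 a pseudogene in that table.

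The 2 galactolipid enzymes differed in abundance and precision. Ugt8, the ceramide galactosyltransferase, was at 71.9, 96.2 and 94.5 CPM in FRL vehicle, 83.5, 69.4 and 70.5 in FSL vehicle, 96.3, 153.4 and 98 in non-responders, and 79.9, 139.7 and 103.9 in responders. Its 3 non-responder libraries lay above all 6 vehicle libraries, by a narrow margin over FRL vehicle 2. Gal3st1, the sulfotransferase that turns the product of Ugt8 into sulfatide, rested on only 25 to 58 counts per library. Its level was 5.4, 7.46 and 4.94 CPM in FRL vehicle, 4.05, 3.22 and 4.06 in FSL vehicle, 6.33, 7.64 and 4.52 in non-responders, and 3.67, 6.93 and 7.15 in responders. For Gal3st1 alone among the 9, all FSL vehicle libraries lay below all FRL vehicle libraries.

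Cldn11, the claudin of the tight junctions of myelin, followed a different order. It was at 144.5, 189.6 and 159.5 CPM in FRL vehicle, 125.5, 183.9 and 189.7 in FSL vehicle, 158.9, 281.2 and 167.2 in non-responders, and 127.9, 243.2 and 179.9 in responders. FSL vehicle 1 was its lowest library, and FSL vehicle 2 and 3, low for most of the set, were here near the top of the FRL vehicle range or just above it. For 7 genes (Mbp, Mog, Mal, Mag, Cnp, Mobp and Ugt8) the group means ran from FSL vehicle through FRL vehicle and responders to non-responders. For Cldn11 FRL vehicle had the lowest mean, and for Gal3st1 the order was FSL vehicle, responders, FRL vehicle, non-responders. Groups next to each other in these orders overlapped for all 9 genes. The ratio of the highest to the lowest library was between 2.15 and 3.38.

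Summed over the 9 genes, the level was 3190, 4629 and 3655 CPM in FRL vehicle, 3601, 2425 and 3159 in FSL vehicle, 4336, 7286 and 4556 in non-responders, and 3420, 6510 and 4238 in responders. Mbp makes up most of this sum. The coefficients of variation of single genes within a group were 13.9% to 22.7% in FRL vehicle, 10.6% to 30.3% in FSL vehicle, 23.2% to 34.3% in non-responders and 27.9% to 37.2% in responders. Their medians were 18% and 21.3% in the vehicle groups and 29% and 32.9% in the LAC groups, in the same order, but the ranges of FSL vehicle and both LAC groups overlap, and the difference in spread was not tested.

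In FSL vehicle against FRL vehicle, the comparison of the lines without treatment, 8 of the 9 genes had lower means in FSL vehicle and none of the 9 passed edgeR's quasi-likelihood test. The test called 0.0681% of all 11750 genes in this comparison, and it had 13.9% at an unadjusted p below 0.05, with 0 of the 9 among them. The median log2 fold change was -0.29, against -0.01 for all genes, of which 48.4% were above 0. The furthest values were those of Gal3st1, at -0.66 ± 0.31 (SE; edgeR adjusted p = 0.369), and Mal, at -0.58 ± 0.28 (edgeR adjusted p = 0.397). Groups that do not overlap with FSL vehicle lower were found for 6.25% of all genes, and for 1 of the 9, Gal3st1. Mbp stood at -0.34 with a 95% confidence interval from -0.97 to 0.29, and Cldn11 at 0.02 with an interval from -0.58 to 0.62. DESeq2, which called 1.43% of all genes here, and limma-voom, which called 0.0426%, also called 0 of the 9. The median was -0.14 without FRL vehicle 2, -0.44 without FSL vehicle 1, and -0.74 with the 3 choroid-rich libraries left out, which leaves FSL vehicle 2 alone in its group.

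In non-responders against FSL vehicle, the first of the LAC comparisons, all 9 genes had higher means in non-responders and none passed the test, which called 0% of all genes. Log2 fold changes ran from 0.28 for Cldn11 to 1.004 for Mal, with a median of 0.72, against -0.00394 for all genes, of which 48.9% were above 0. Mal was at 1.004 ± 0.29 (95% interval 0.38 to 1.63), Mbp at 0.89 ± 0.29 (0.25 to 1.53) and Cnp, the most precise of the 9, at 0.59 ± 0.22 (0.11 to 1.07). All 9 had an edgeR adjusted p of 0.976. At an unadjusted p below 0.05, 8 of the 9 were higher, all but Cldn11, against 1.89% of all genes. The same 8 had groups that do not overlap, against 4.68% of all genes higher in this way. The 9 genes were chosen with earlier results of these data known and mostly followed each other across libraries. Counts of them, here and below, are therefore not counts of separate observations. DESeq2, with 0.017% of all genes called, and limma-voom, with 0%, called 0 of the 9. Without non-responder 2 the median was 0.51 and 1 of the 9 had an unadjusted p below 0.05, against 1.11% of all genes higher. Without FSL vehicle 2 the count was 2, against 4.73% of all genes. With the 3 choroid-rich libraries left out the median was 1.31. That fit leaves FSL vehicle 2, the lowest library for all of the 9 but Cldn11, as the only control. By the rule used here, which reads pairing from the same counts, the library numbers pair these 2 groups, though the labels state no pairing. With the number as a block in a fit of the 2 groups the count was 5, against 1.4% of all genes, and 0 were called.

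Responders against FSL vehicle gave somewhat smaller values from the same 3 control libraries, so both comparisons share whatever is particular to those controls. All 9 means were higher in responders, with log2 fold changes from 0.14 for Cldn11 to 0.80 for Mal and a median of 0.65, against 0.01 for all genes, of which 52% were above 0. None passed edgeR's test, which called 0% of all genes. Mal was at 0.80 ± 0.28 (edgeR adjusted p = 0.283), Mog at 0.69 ± 0.29 (edgeR adjusted p = 0.336), Mbp at 0.65 ± 0.29 (edgeR adjusted p = 0.351) and Cnp at 0.58 ± 0.22 (edgeR adjusted p = 0.304). An unadjusted p below 0.05 was found for 6 of the 9 (Mbp, Mog, Mal, Cnp, Mobp and Ugt8), against 4.61% of all genes higher. Groups did not overlap for 1 of the 9, Cnp, against 6.37% of all genes higher. DESeq2, which called 186 genes or 1.62% in this comparison, and limma-voom, which called 0%, called 0 of the 9. The count of 6 went to 0 without responder 2, without FSL vehicle 2 and without FSL vehicle 3, where the share of all genes higher in this way was 3.44%, 11.2% and 1.79%. It went to 3 without responder 3, against 3.54% of all genes, and the median was 0.32 without responder 2.

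**Figure D2:**
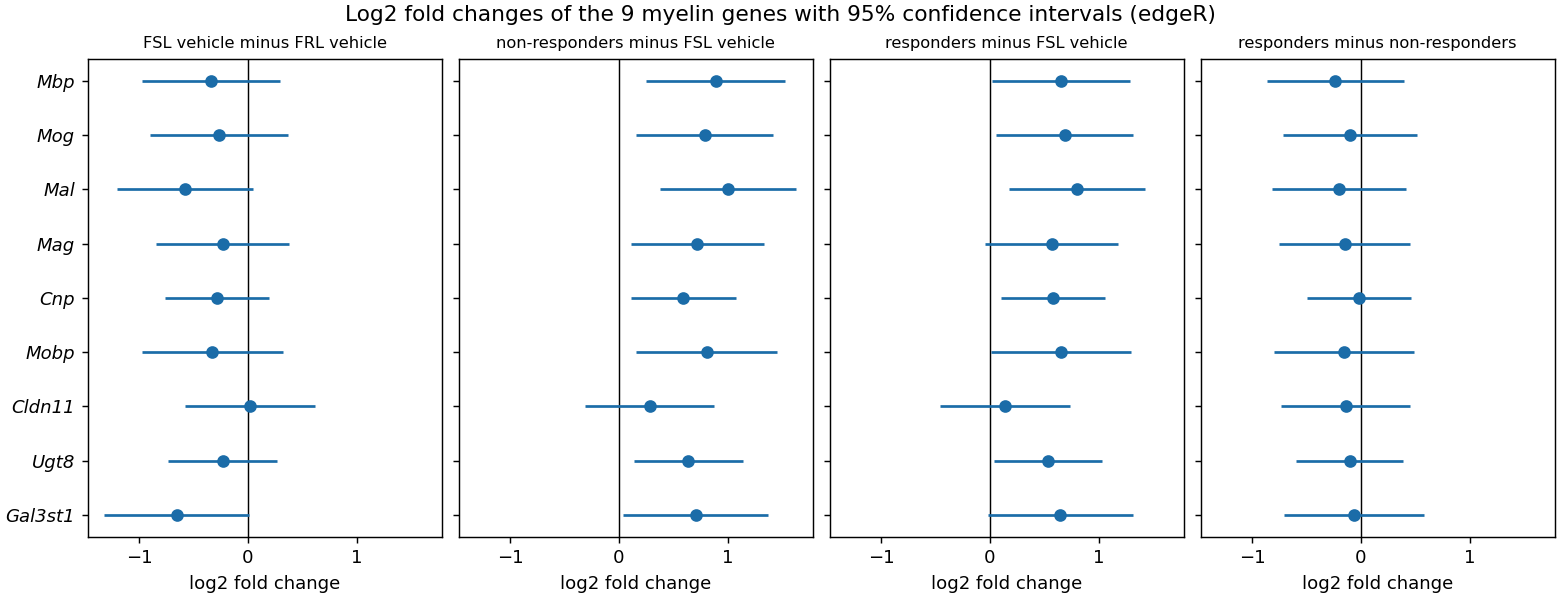
Log2 fold change (horizontal axes) of each myelin gene in 4 comparisons, with points for the edgeR estimate and lines for its 95% confidence interval. Against FSL vehicle, 8 intervals in non-responders and 6 in responders lie above 0 before adjustment, and every interval of responders against non-responders crosses 0.

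With both LAC groups averaged against FSL vehicle, the median log2 fold change of the 9 was 0.68, from 0.21 for Cldn11 to 0.90 for Mal, while 50.7% of all genes were above 0. None passed edgeR's test, which called 0% of all genes, and the edgeR adjusted p ran from 0.324 to 0.761. Mal, at 0.90 ± 0.25, was called by DESeq2 (adjusted p = 0.0436), as were 0.519% of all genes, and was not called by edgeR or by limma-voom, which called 0% of all genes. At an unadjusted p below 0.05, 8 of the 9 were higher, against 3.9% of all genes. Groups did not overlap for 1 of the 9, Cnp, against 1.86% of all genes higher. Mal had no library of either LAC group below FSL vehicle 2 and 3, and responder 1 lay below FSL vehicle 1. Without FSL vehicle 2, the count of 8 went to 2, while the share of all genes higher in this way went to 9.47%. With the 3 choroid-rich libraries left out the median was 1.14. That fit leaves FSL vehicle 2, the lowest library for all of the 9 but Cldn11, as the only control.

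Responders against non-responders, the test of whether the response label goes with the myelin genes, gave 9 lower means in responders and 0 of the 9 called, with 0% of all genes called and 50.3% above 0. Log2 fold changes ran from -0.23 for Mbp to -0.01 for Cnp, with a median of -0.14, and the edgeR adjusted p was at least 0.992. At an unadjusted p below 0.05 there were 0 of the 9 and 3.14% of all genes, and DESeq2 and limma-voom called 0 of the 9 and 0% of all genes. Non-responder 2 and responder 2 were alike in level for most genes, with Mbp at 4737 and 4127 CPM and Cnp at 652.8 and 663.5. The interval for Mbp ran from -0.87 to 0.40 and so includes differences of either sign. Leaving out non-responder 2 turned all 9 values positive, with a median of 0.12, and leaving out responder 2 gave a median of -0.40. Without the 2 libraries low in granule neuron markers, FRL vehicle 2 and responder 1, 8 of the 9 were positive with a median of 0.07.

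Against FRL vehicle, the control line, the LAC groups also had higher means for most of the set, and none of the 9 was called. In non-responders all 9 were positive with a median log2 fold change of 0.43, from 0.05 for Gal3st1 to 0.55 for Mbp (edgeR adjusted p from 0.956 to 0.997), with 0.0426% of all genes called and 49.8% above 0. Mag and Ugt8 had groups that do not overlap, 2 of the 9 against 7.37% of all genes higher in this way. In responders 8 were positive with a median of 0.30 (edgeR adjusted p = 0.9996), with 0.0851% of all genes called and 51.1% above 0, and Gal3st1 was at -0.01. No member reached an unadjusted p below 0.05 in either comparison, where 5.24% and 3.58% of all genes did, and 0 of the 9 were called in both by DESeq2 (0.238% and 0.213% of all genes) and limma-voom (0.0426% and 0.0851%). The median in non-responders was 0.16 without non-responder 2. The median in responders was -0.00381 without responder 2, 0.48 without responder 1, and 0.60 without FRL vehicle 2 and responder 1 together.

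Other tissue differed between the same groups. The 10 meningeal and fibroblast markers summed to 245.9 to 2728 CPM in FSL vehicle and 91.9 to 229.7 in responders, without overlap of the sums. The sums were 335.7 to 604.8 CPM in non-responders. By mean log2 CPM of the same markers, FSL vehicle, at 2.77 to 6.08, and responders, at 1.98 to 3.28, did overlap. Of these markers Col1a2 was at 0 in all libraries and Ogn at 0 in 4. With the meningeal mean as a covariate, all 9 values of non-responders and of responders against FSL vehicle stayed positive, and 7 and 0 had an unadjusted p below 0.05, against 1.51% and 2.34% of all genes higher. The 8 vessel markers summed to 239.3 to 300.6 CPM in FRL vehicle, 329.1 to 663.2 in FSL vehicle, 276.5 to 389 in non-responders and 272.3 to 300.9 in responders, with none at 0. All 8 were higher in FSL vehicle than in FRL vehicle, 6 at an unadjusted p below 0.05 against 9.35% of all genes. All 8 were lower in responders than in FSL vehicle, 6 at that p against 9.17% of all genes. The 10 microglial markers, none at 0, summed to 237.6 to 263.7 CPM in FRL vehicle, 304.9 to 382.9 in FSL vehicle, 267.4 to 348.2 in non-responders and 267.1 to 333.9 in responders. All 10 were higher in FSL vehicle than in FRL vehicle, 6 at an unadjusted p below 0.05. The 8 pan-neuronal markers summed to 2705 to 3462 CPM in FSL vehicle, 3563 to 4028 in non-responders, 3413 to 4175 in responders and 3868 to 4166 in FRL vehicle, and none was at 0. Responder 1, the lowest responder library for all 9 genes, had the highest sum of thalamic markers, 496.4 CPM against 134.4 to 257.7 elsewhere, and a granule neuron sum of 243.9 against 283 to 404 in libraries other than FRL vehicle 2. Slc17a6 alone was at 274.2 CPM of that thalamic sum, while Plekhg1 of the same list was at 27.3, its lowest level in any library. By mean log2 CPM of the thalamic list, responder 1 was at 4.67, below FSL vehicle 3 at 4.88. The part of vessel, microglial, thalamic and neuronal RNA in the myelin values was not tested.

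Over the 12 libraries, the 9 genes followed each other closely. The 36 pairs had a Pearson r of log2 CPM between 0.56 and 0.996, with a median of 0.93, as a description of libraries that share depth and scaling. Mbp and Mobp were the closest pair. The 21 pairs without Cldn11 and Gal3st1 lay between 0.91 and 0.996. Against the mean of the other 8, r was 0.94 to 0.98 for the remaining 7 genes, 0.81 for Gal3st1 and 0.65 for Cldn11. Gal3st1 is also the gene with the fewest counts. The ratio of a gene to the other 8 had an SD on the log2 scale of 0.11 to 0.17 for those 7 genes, 0.25 for Gal3st1 and 0.32 for Cldn11.

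**Figure D3:**
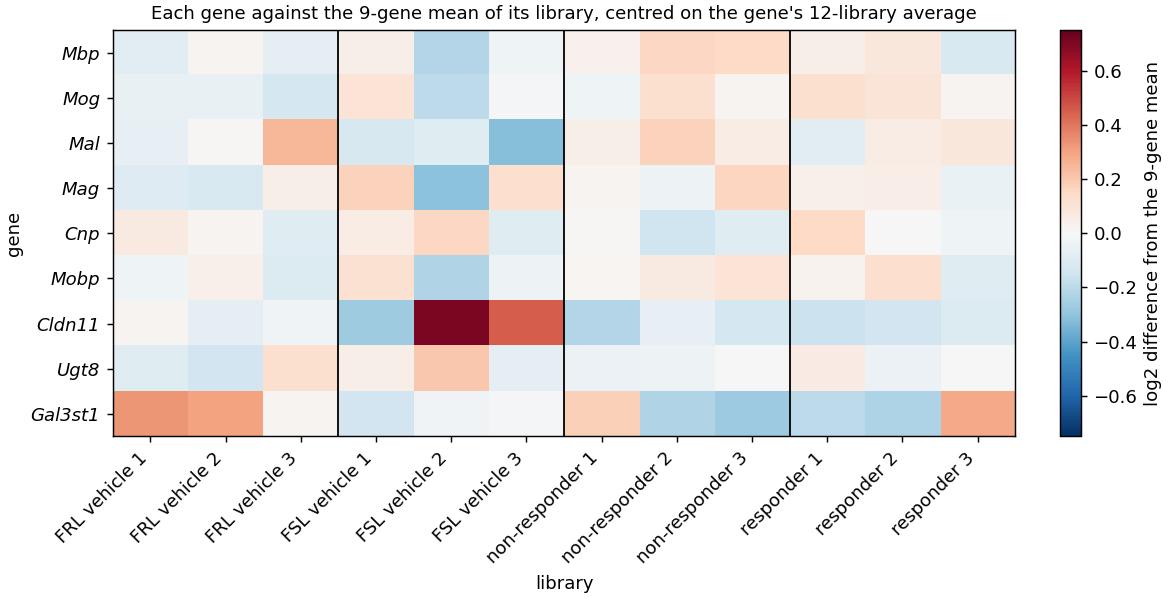
Log2 level of each gene (rows) relative to the 9-gene mean of its library (columns), centred on that gene's average over the 12 libraries, with red above and blue below. Cldn11 in FSL vehicle 2 and 3 stands out at 0.71 and 0.45, and Gal3st1 varies between -0.27 and 0.33.

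The departure of Cldn11 came from FSL vehicle 2 and FSL vehicle 3. Its log2 CPM minus the mean of the other 8 was 0.86 and 0.57 in these, and between -0.24 and 0.08 in the other 10 libraries. Claudin-11 is known to be made outside myelin too, in the barrier cells of the arachnoid and in Sertoli cells. The same 2 libraries had the highest mean of meningeal and fibroblast markers, 4.70 and 6.08 log2 CPM against 1.98 to 4.29 elsewhere. Over 12 libraries that relation had a Pearson r of 0.70 and a Spearman rho of 0.52, and without FSL vehicle 2 and 3 the r was 0.15, so it rests on those 2. Non-responder 2 and 3, at 4.29 and 4.22 log2 CPM of these markers, had Cldn11 at -0.01 and -0.08 relative to the others. With the meningeal mean as a covariate, the log2 fold change of Cldn11 in FSL vehicle against FRL vehicle was -0.21 ± 0.31 instead of 0.02 ± 0.27 (SE). The part of meningeal RNA in the Cldn11 values was not tested.

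**Figure D4:**
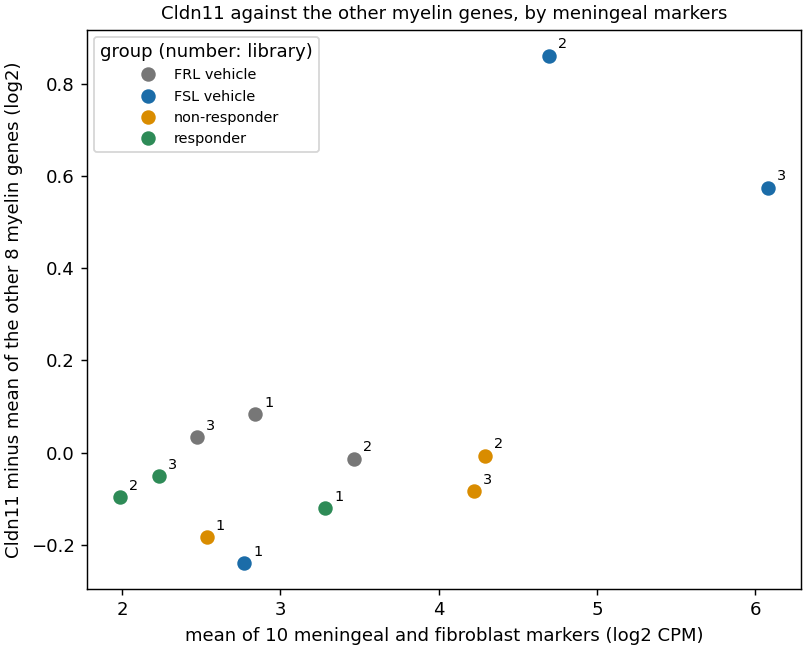
Cldn11 relative to the mean of the other 8 myelin genes (vertical axis, log2) against the mean of 10 meningeal and fibroblast markers (horizontal axis, log2 CPM) in the 12 libraries. FSL vehicle 2 and 3 sit at the upper right at 0.86 and 0.57, and the other 10 libraries lie between -0.24 and 0.08.

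A list of other mature oligodendrocyte and myelin genes, with 28 of 30 found and tested, stood on the same side in each of these comparisons. In non-responders against FSL vehicle 26 of 28 were higher, with a median log2 fold change of 0.60, 14 at an unadjusted p below 0.05 and 14 with groups that do not overlap, all higher, against 1.89% and 4.68% of all genes. In responders 25 of 28 were higher, with a median of 0.41 and 6 at an unadjusted p below 0.05, against 4.61% of all genes higher. In FSL vehicle against FRL vehicle 23 of 28 were lower, with a median of -0.25. Over the 6 lists of related genes described here, edgeR and limma-voom called no gene in any of the 7 comparisons. DESeq2's calls among the genes named here were Olig2, Pdgfra and Cntnap1. Tf, which encodes transferrin and is made by oligodendrocytes and also by the choroid plexus, was highest in non-responder 1 at 1660 CPM and at 964.7 in FSL vehicle 1, both high in choroid plexus markers, but was also at 1245 in non-responder 2 and 1145 in responder 2, both low in them.

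The mean of the 9 genes correlated with the mean of this list at r = 0.95 over 12 libraries (rho 0.90, and r = 0.90 without the 2 libraries farthest from the median). For 10 transcription factors of the lineage r was 0.84 (rho 0.77, and 0.69 without the farthest 2), and for 15 genes of precursors and newly formed cells it was -0.01 (rho -0.01, and -0.01). For genes of the axon's side of nodes and paranodes r was 0.57 (rho 0.62, and 0.19). For the other galactolipid and sphingolipid enzymes it was 0.54 (rho 0.49, and 0.62), and for cholesterol synthesis 0.34 (rho 0.51, and 0.22). For the 11 marker lists of other cells and regions (granule neurons, thalamus, CA1, CA3, choroid plexus, meninges, astrocytes, microglia, vessels, Schwann cells and neurons at large) r ran from -0.39 for thalamus to 0.46 for neurons at large. Their rho ran from -0.51 to 0.45, and r without the farthest 2 libraries from -0.45 to 0.39. Ranked over all other tested genes, 9 of the 10 most like the mean of the 9 were, in order, Fa2h (r = 0.96), Rffl, Sept4, Gna12, Gjb1, Pllp, Tspan2, Spock3 and Ermn (r = 0.93). Of these 6 stand in the list of mature oligodendrocyte genes, among them Fa2h, which makes the hydroxylated fatty acids of myelin galactolipids, and Gjb1, which encodes the gap junction protein connexin 32. Rffl, Gna12 and Spock3 stand in none of the lists used here, and Gna12 varied over a narrow range, from 158.4 CPM in FSL vehicle 2 to 235.2 in responder 2.

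**Figure D5:**
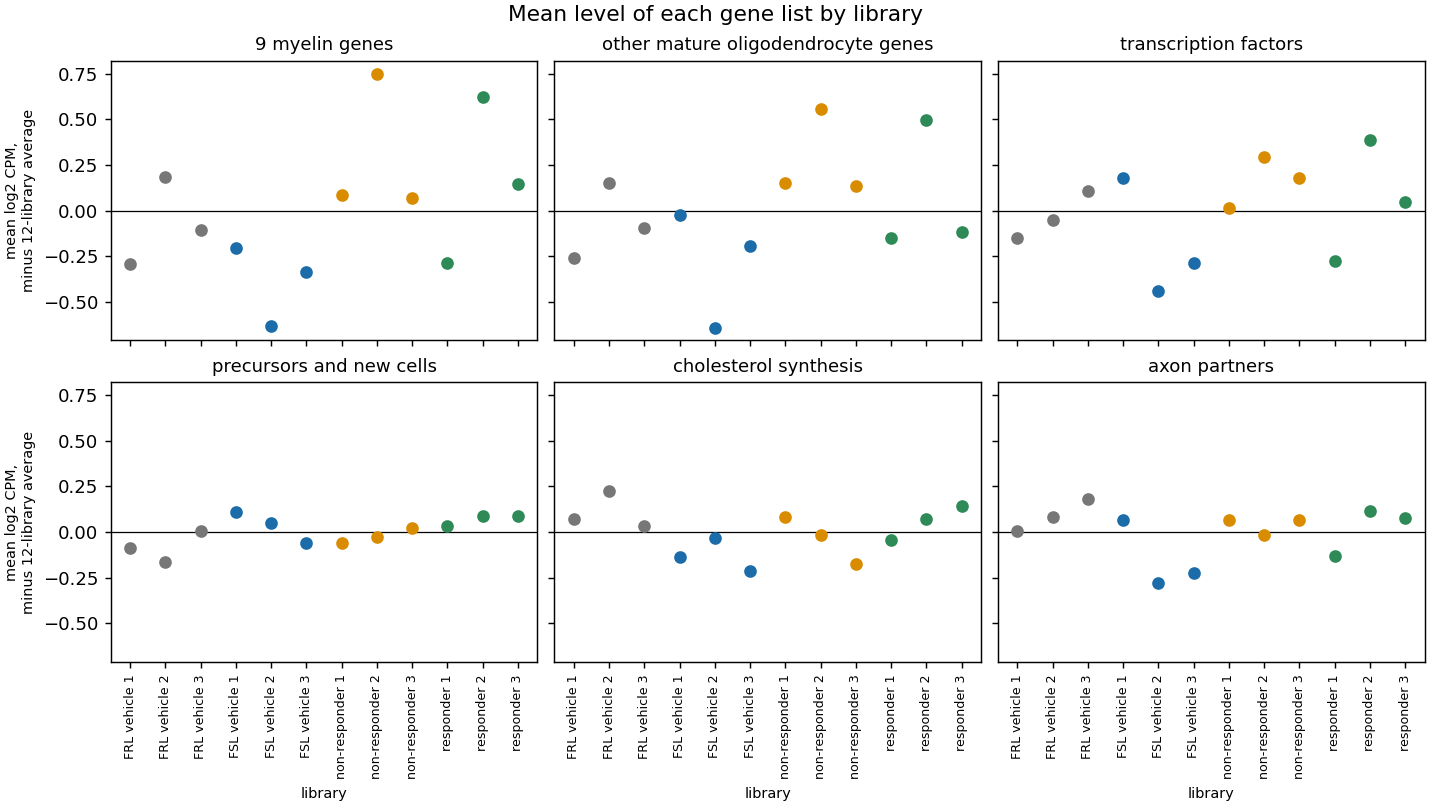
Mean log2 CPM of each gene list in each library minus its average over the 12 libraries (vertical axes, log2), in the order of libraries given on the horizontal axes and coloured by group. Non-responder 2 and responder 2 are the highest points for the 9 myelin genes and the other mature genes, while genes of precursors and new cells stay within a narrow band.

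The transcription factors of the lineage, 10 of 12 found and tested, were split. In both LAC groups against FSL vehicle 8 of 10 were higher, with a median log2 fold change of 0.34 in non-responders and 0.30 in responders, and the same 3 (Olig1, Olig2 and Nkx6-2) had an unadjusted p below 0.05, against 1.89% and 4.61% of all genes higher. None was called by edgeR. Olig2, which was picked out after its values were seen, was at 27.1, 27 and 31.1 CPM in FRL vehicle, 29.4, 26.7 and 20.3 in FSL vehicle, 38, 40.2 and 38 in non-responders, and 38.1, 42.7 and 33.3 in responders. All 6 LAC libraries of Olig2 lay above all 6 vehicle libraries, a pattern whose share over all genes was not computed. Against FSL vehicle alone, 1.86% of all genes had both LAC groups higher without overlap. The log2 fold change of Olig2 was 0.61 ± 0.14 in non-responders (edgeR adjusted p = 0.976) and 0.58 ± 0.14 in responders (edgeR adjusted p = 0.266). DESeq2 called Olig2 in responders (adjusted p = 0.0298) and with both LAC groups averaged (adjusted p = 0.0148). Olig1, a related factor, was at 60.2, 70.1 and 74.2 CPM in FRL vehicle, 68.4, 50.7 and 50.6 in FSL vehicle, 67.8, 86.4 and 72.5 in non-responders, and 64.2, 94.4 and 69.5 in responders, with overlap in both LAC comparisons. Myrf, the factor that switches on myelin genes, was at 94.2, 24 and 83.8 CPM in FSL vehicle, a range that covers the 3 non-responder libraries at 63.8, 92.9 and 91.1, and its log2 fold change was 0.30 ± 0.42 (edgeR adjusted p = 0.983).

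Genes of precursors and newly formed oligodendrocytes, 15 of 17 found and tested, had medians near 0 in LAC comparisons, -0.04 in non-responders and 0.05 in responders, with 7 and 8 of 15 higher. Ptprz1, which encodes a receptor phosphatase of precursors and astrocytes, was between 614.9 and 826.8 CPM, and Bcan, which encodes the matrix proteoglycan brevican, between 356.4 and 475.1, over all libraries. Pdgfra, the growth factor receptor of precursors, was picked out after its values were seen. It was at 144.3, 157.2 and 128 CPM in FRL vehicle, 166.1, 226.1 and 372.2 in FSL vehicle, 163.8, 193.3 and 190.8 in non-responders, and 175.6, 136.5 and 152.5 in responders. Fibroblasts of the meninges also carry Pdgfra, and its highest libraries, FSL vehicle 3 and 2, were those highest in meningeal markers. In FSL vehicle against FRL vehicle its log2 fold change was 0.83 ± 0.24 (edgeR adjusted p = 0.251, DESeq2 adjusted p = 0.0415), and the part of meningeal RNA in this value was not tested.

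The lipid enzymes were closer to the values of all genes in the LAC comparisons. The 17 other galactolipid and sphingolipid enzymes had medians of 0.03 in non-responders and -0.01 in responders against FSL vehicle, and 0.04 between the lines. In this list Psap, which encodes the saposin precursor, was between 1446 and 1843 CPM in 11 libraries and at 2229 in non-responder 1, and B4galt6, which makes lactosylceramide, between 199.8 and 272.2. The 19 genes of cholesterol synthesis were lower in FSL vehicle than in FRL vehicle for 18 genes, with a median of -0.24. At an unadjusted p below 0.05, 7 of the 19 were lower, against 4.54% of all genes, and 0 were called by edgeR. Hmgcs1, which makes an early intermediate of the pathway, was at 577.1, 751.4 and 566.2 CPM in FRL vehicle and 456.5, 604.4 and 411 in FSL vehicle, and its log2 fold change was -0.36 ± 0.16 (edgeR adjusted p = 0.343). In responders against FSL vehicle 18 of 19 were higher, with a median of 0.18 and 3 at an unadjusted p below 0.05, against 4.61% of all genes higher. In non-responders 15 of 19 were higher, with a median of 0.11 and 0 at an unadjusted p below 0.05, against 1.89% of all genes higher. Cholesterol is made by astrocytes and neurons as well as by oligodendrocytes, and these counts do not separate the sources.

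Genes of the axon's side of nodes and paranodes, 14 of 15 found and tested, were lower in FSL vehicle than in FRL vehicle for 13 genes, with a median of -0.22. At an unadjusted p below 0.05, 4 of the 14 were lower, against 4.54% of all genes, and 0 were called by edgeR. Cntnap1, which encodes the paranodal protein Caspr, was picked out after its values were seen. It was at 447.7, 496.7 and 510 CPM in FRL vehicle and 387.8, 372.5 and 335 in FSL vehicle. It had no overlap between these groups, against 6.25% of all genes lower in this way. Its log2 fold change was -0.41 ± 0.11 (edgeR adjusted p = 0.238, DESeq2 adjusted p = 0.0318). Of the 2 most abundant genes of the list, Nrcam was between 1092 and 1670 CPM and Cntn1 between 617 and 1068. In both LAC comparisons the medians were 0.18 in non-responders and 0.17 in responders. The sum of pan-neuronal markers was also lower in FSL vehicle, as given above, and its part in these values was not tested.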

How the data were processed

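RNA from 12 ventral dentate gyrus samples (about 130 mg of tissue) was depleted of ribosomal RNA, built into stranded libraries and sequenced to 100 bp, per the labels' protocols. The authors deposited raw read counts by gene symbol. The submitters' processing notes list the build rn5 and, with no role, HTSeq 0.6.1, TopHat2 2.0.9, edgeR 3.12.0, Trimmomatic 0.33 and FastQC 0.11.3. The annotation and strand setting were not given in the sources used here. Summary lines, 5 per library, stayed out of library sizes: reads in no feature (47.7% to 52.7%), ambiguous (0.0756% to 0.106%) and not uniquely aligned (24.3% to 28.4%) as shares of all lines.

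Groups came from the labels. Tests were two-sided and used edgeR 4.0.16 (R 4.3.3) with TMM factors, the default filter by group and robust quasi-likelihood; 1 model held the 12 libraries and 4 group means, with p Benjamini-Hochberg adjusted over 11750 genes at 0.05. Log2 CPM used a prior count of 2. DESeq2 1.42.0, limma-voom (limma 3.58.1), other scalings and filters, the compared groups only, marker covariates, a replicate block and each library left out were alternatives. The fits were tested on simulated data. Replicates differed beyond sampling noise. Same-numbered libraries of FSL vehicle and non-responders correlated at 0.581, 0.212 and 0.426 in their deviations from group means. All lay above 0.1, which by the rule used here pairs these groups. The unlike-numbered FSL vehicle 3 and non-responder 2 correlated at 0.318, and the other unlike-numbered pairs were negative. The pair at 0.581 held the libraries with the highest sums of choroid plexus markers. The labels state no pairing, and no other 2 groups met the rule.

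The 9 genes, the 6 gene lists and the 12 marker lists were chosen with earlier results of these data known. Named were the 9, the 2 most abundant genes of a list, any gene past the threshold, and the 10 genes most correlated with the mean of the 9. Some genes that these rules name are not reported here. Promoter windows came from a RefSeq table on GRCr8.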

Additional observations from a re-analysis of the deposited data

How the results depend on the processing

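The count of the 9 genes called was 0 in each of the 7 comparisons and stayed 0 under every alternative run, except that DESeq2 called 1, Mal, with both LAC groups averaged (0.90, adjusted p = 0.0436). DESeq2 was not run with a library left out. Self-tests on simulated counts made calls at this sample size, but the planted log2 changes were of size 1 or 2. Most changes of the 9 genes were smaller, so the self-tests cannot decide whether such changes would be called. With 1 library left out, the median log2 fold change of the 9 ranged from -0.44 to -0.14 in FSL vehicle against FRL vehicle; from 0.51 to 0.91 in non-responders against FSL vehicle; from 0.32 to 0.84 in responders against FSL vehicle; from -0.40 to 0.12 in responders against non-responders; from 0.16 to 0.57 in non-responders against FRL vehicle; from -0.00381 to 0.48 in responders against FRL vehicle; from 0.55 to 0.83 in both LAC groups against FSL vehicle. With the 3 choroid-rich libraries left out it was -0.74 in FSL vehicle against FRL vehicle, 1.31 in non-responders against FSL vehicle and 1.14 for both LAC groups; FSL vehicle then has 1 library, FSL vehicle 2, assumed to vary like the other groups. Single genes changed sign as follows when 1 library was left out, with the range over the libraries left out: -0.0818 to 0.18 for Cldn11 in FSL vehicle against FRL vehicle; -0.0361 to 0.43 for Cldn11 in non-responders against FSL vehicle; -0.12 to 0.35 for Cldn11 in responders against FSL vehicle; -0.56 to 0.0512 for Mbp, -0.38 to 0.22 for Mog, -0.49 to 0.11 for Mal, -0.45 to 0.0518 for Mag, -0.26 to 0.20 for Cnp, -0.50 to 0.11 for Mobp, -0.40 to 0.17 for Cldn11, -0.34 to 0.15 for Ugt8 and -0.24 to 0.19 for Gal3st1 in responders against non-responders; -0.00871 to 0.45 for Cldn11 and -0.13 to 0.25 for Gal3st1 in non-responders against FRL vehicle; -0.00381 to 0.50 for Mbp, -0.0532 to 0.46 for Mal, -0.0129 to 0.52 for Mobp, -0.10 to 0.36 for Cldn11 and -0.17 to 0.24 for Gal3st1 in responders against FRL vehicle. Without the 2 libraries low in granule neuron markers, 8 genes changed sign in responders against non-responders (Mog 0.0843, Mal 0.0286, Mag 0.0396, Cnp 0.14, Mobp 0.0447, Cldn11 0.0653, Ugt8 0.0733, Gal3st1 0.19), as did Gal3st1 in responders against FRL vehicle (0.44). With the meningeal covariate Cldn11 was at -0.21 in FSL vehicle against FRL vehicle and at 0.0478 in responders against non-responders, with the granule neuron covariate Gal3st1 was at -0.0199 in non-responders against FRL vehicle, and without the choroid-high libraries Cldn11 was at -0.0045 in responders against FSL vehicle. The causes of these changes were not tested. Responders against FSL vehicle had 6 of the 9 at an unadjusted p below 0.05, and 3 without scaling beyond total counts, 4 with the compared groups only and 4 with the replicate block, against 4.61%, 2.43%, 1.99% and 4.99% of all genes higher. The replicate block changed no call among the 9 genes, while over all genes the calls fell in each comparison with FRL vehicle. Under this block the median of the 9 was 0.69 in non-responders and 0.57 in responders against FSL vehicle, and -0.25 between the lines. A block in the fit of non-responders and FSL vehicle alone, chosen after seeing the data, gave 0.72. Over all genes, edgeR called 0 in responders against FSL vehicle and 349 without FSL vehicle 1, and DESeq2 186. Gal3st1, at 25 to 58 counts, is the gene most limited by depth.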
